A study of Mus musculus with 6 samples.

Results

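The 4619 contacts described here are pairs of 5 kb bins of the mouse genome (build mm9) that entered the list of significant Hi-C interactions after 6 h of retinoic acid and were still on it after 48 h. They were chosen by their counts. Both bins lay on 1 autosome, from 20 kb to just under 1 Mb apart. The pair had a count of 0 in both untreated libraries, and in each of the 4 treated libraries its count was at least 1.5 times the lowest count that this library listed at the same distance. They made up 0.126% of the 3654010 nuclear pairs in the table and 0.170% of the 2710982 autosomal pairs of that distance range.

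All cells were P19, an established mouse embryonal carcinoma line grown as a monolayer. The design had 2 libraries each of untreated cells (T0), of cells kept for 6 h in all-trans retinoic acid (ATRA) at 1e-06 M (T6), and of cells kept for 48 h at that dose (T48). No time-matched cells without ATRA were analysed here, so the agent and the time in culture cannot be told apart. Moreover, the origin of the replicates (separate or shared cultures) is not given in the sources used here, so that every p-value below measures the spread between these libraries alone.

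Hi-C cuts crosslinked chromatin, joins DNA ends that lie near each other in the nucleus and counts the joined fragments, so a count for 2 bins is a measure of how often they met. Contacts of this range are known to form within topologically associating domains, where cohesin extrudes loops that are often halted at CTCF sites, and between enhancers and promoters. Retinoic acid binds nuclear receptors that sit on DNA and switch target genes, among them developmental transcription factors, towards activation, and P19 cells are known to take a neural course under it.

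A count of 0 in this table has a particular meaning. In the deposited table the 2 libraries of a time point were always above 0 together or at 0 together, and no listed count was below 3, so a 0 marks a pair that was not listed, not a pair that was never in contact. A pair that missed the authors' criterion in a single T0 library would also stand at 0 in both. The contacts are therefore called newly listed below, and their counts before treatment are unknown. The lowest listed count fell with distance, from 22 and 13 at 20 kb in T0 replicates 1 and 2 to 3 in all 6 libraries at 990 kb, and at 20 kb it was the same on all 19 autosomes. The listed counts of replicates 1 and 2 summed to 50154643 and 29644373 over 1911467 pairs before treatment, to 40561360 and 23003295 over 1617863 pairs after 6 h, and to 43500876 and 29554481 over 1825848 pairs after 48 h.

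Newly listed contacts were a minority of the strong contacts shared by both treated time points. Of 48812 autosomal pairs at least 1.5 times the lowest listed count in all 4 treated libraries, 4619 were not listed at T0. That share of 9.46% (95% Wilson interval 9.21 to 9.73%) is set by the rule, and it is given as a description. A further 35059 of these pairs (71.8%) passed the same threshold at T0, and 9134 (18.7%) were listed at T0 with a lower count. The same construction with another time point left out gave larger shares. Of 57117 pairs strong at T0 and T48, 7901 were unlisted at T6 (13.8%, interval 13.6 to 14.1%). Of 63309 pairs strong at T0 and T6, 11650 were unlisted at T48 (18.4%, interval 18.1 to 18.7%). Contacts absent only at the first time point were thus fewer than contacts absent only at the middle or only at the last one. The intervals cover the counting error of bin pairs only. They treat pairs that share bins as independent and leave out the spread between replicates. Read pairs also carry no molecular identifiers, and the T0 list was the longest of the 3.

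The share of newly listed contacts rose with distance in every step. It was 4.92% at 20 to 50 kb, 6.87% at 50 to 100 kb, 9.50% at 100 to 200 kb, 13.1% at 200 to 500 kb and 16.3% at 500 kb to 1 Mb. The share missing only at T6 also rose in every step, from 8.87% to 21.2%. The share missing only at T48 had no such trend, at 17.3% in the shortest class and 18.8% in the longest. Between autosomes the newly listed share ran from 5.29% on chromosome 1 (382 of 7225 pairs) to 15.6% on chromosome 14 (297 of 1905, interval 14.0 to 17.3%), with a median of 10.2%.

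**Figure D1:**
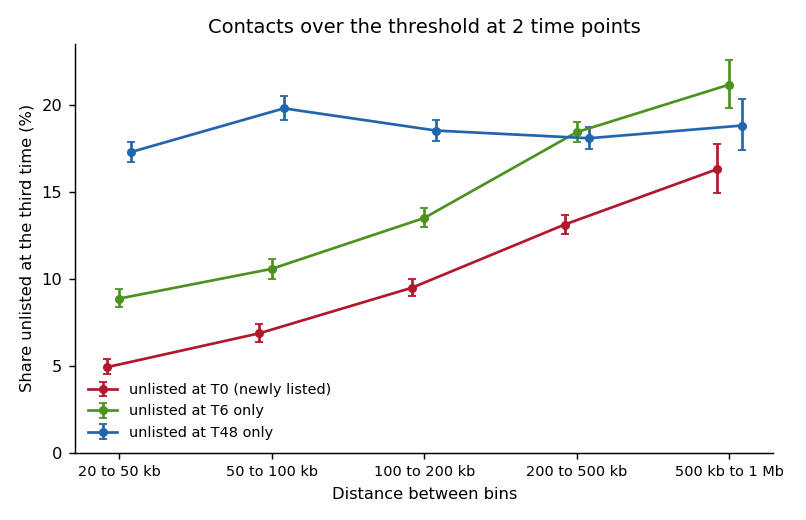
Share (%) of contacts over the 1.5-fold threshold at 2 time points that were not listed at the third, by distance between the bins, with 95% Wilson intervals as bars. The red line, contacts unlisted at T0, runs from 4.92% to 16.3% and lies below the green line (unlisted at T6) and the blue line (unlisted at T48) in all 5 distance classes.

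The newly listed contacts spanned 20 to 990 kb, with a median of 190 kb and quartiles of 100 and 332.5 kb. The 35059 contacts that were strong at all 3 time points had a median of 120 kb. The contacts missing only at T6 had a median of 185 kb, and those missing only at T48 one of 105 kb. In length the newly listed contacts thus lay beside those missing only at T6.

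Their counts were low. The median count was 12 and 8 at T6 and 12 and 9 at T48, replicate 1 first. In each of the 4 libraries the median contact stood at 2.0 times the lowest listed count of its distance. In contacts strong at all 3 time points the medians were 21, 12, 20 and 14. The lowest of a contact's 4 multiples had a median of 1.625, and in 1597 contacts (34.6%) it was exactly 1.5. It reached 2 in 714 contacts (15.5%), 3 in 39 and 5 in 3. At the threshold, a contact just inside joined chr1:4495001-4500000 and chr1:4750001-4755000 with counts of 10 and 6 at T6 and 8 and 7 at T48. A pair just outside joined chr5:27670001-27675000 and chr5:27695001-27700000 with counts of 25 and 15 at T6 and 31 and 18 at T48, where its lowest multiple was 1.47.

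**Figure D2:**
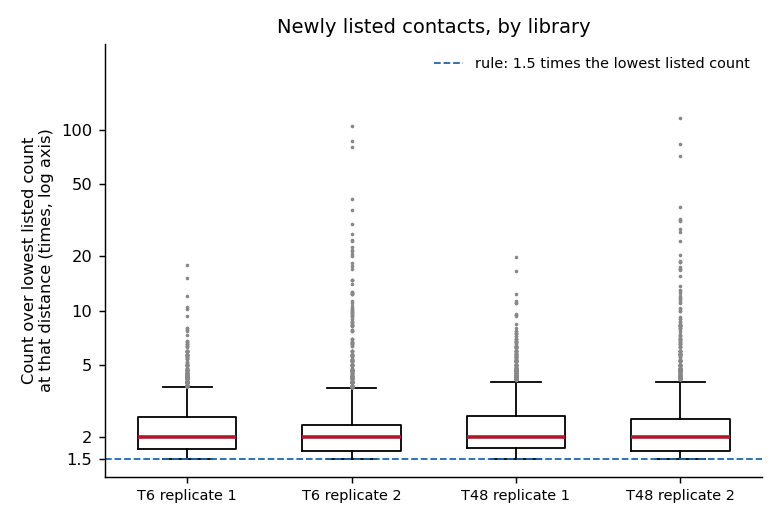
Count of each of the 4619 newly listed contacts over the lowest count listed at its distance (times, log axis), by treated library. Boxes are quartiles with the median in red, whiskers run from the 5th to the 95th percentile, dots are contacts beyond them, and the dashed line is the 1.5-fold rule. All 4 medians stand at 2.0, and the highest dots are in the replicate 2 libraries, at 105 and 117.2 times.

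To describe what a steady contact would have shown before treatment, the T6 and T48 counts of each newly listed contact were scaled to the T0 libraries. The scale was the ratio of summed counts, per replicate and distance class, over pairs listed at all 3 time points. The scaled counts had a median of 2.23 times the lowest count listed at T0 in replicate 1 and 2.09 times in replicate 2. They were at least 1.5 times that floor in both replicates for 4494 contacts (97.3%) and at least 3 times for 183 (3.96%). These values follow from the rule for the most part, since the rule asked for 1.5 times the floor at the later times. They do not measure a step, because the rule asked of T0 only that the pair be unlisted. The T0 counts themselves are not known.

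Most newly listed contacts lay among contacts that were already listed before treatment. Around each contact, the 8 pairs with both bins within 1 bin of it were looked up. At T0, when the contact itself was unlisted, 34.8% of these neighbours were listed, against 32.1% at T6 and 35.6% at T48. At least 1 neighbour was listed at T0 for 4031 of the 4619 contacts (87.3%). The share at T0 thus lay between those of T6 and T48. The lists differed in length, with 1290986 autosomal pairs of this distance range at T0, 1073618 at T6 and 1180199 at T48. Divided by these lengths, the share was 1.11 times that of T0 at T6 and 1.12 times at T48, so that relative to the list the neighbourhood was emptier at T0 than later. This scaling was chosen after the data were seen. Unscaled, the neighbourhood held fewer listed neighbours at T0 than at both later times for 685 contacts (14.8%), and more at T0 than at both later times for 884 (19.1%). These shares have no replicate error, because a list belongs to a time point and not to a library.

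The same lookup around other sets of pairs gives the scale of these values. Around all 107991 pairs listed at T6 and T48 and not at T0, without the threshold, 23.1% of neighbours were listed before ATRA, 19.7% at 6 h and 22.0% at 48 h. Around the contacts missing only at T6 the shares were 38.1%, 33.5% and 38.4% at T0, T6 and T48. Unscaled, the share there was lowest at T6, the time of the gap, but the T6 list was also the shortest. Scaled to list length, the shares were 1.057 times that of T0 at T6 and 1.105 times at T48, so T0 was then lowest. Around the contacts missing only at T48 the unscaled shares were 36.4%, 33.2% and 25.6%, with the lowest share at T48. Around the contacts strong at all times they were 50.3%, 48.0% and 48.5%. Scaled to list length, the shares relative to T0 were 1.03 at T6 and 1.04 at T48 around the 107991 pairs, 1.15 and 1.05 around the contacts strong at all times, and 1.10 and 0.769 around those missing only at T48. The newly listed contacts, at 1.11 and 1.12, were above the 107991 pairs at both times and below the strong contacts at T6. At T48 they lay close to the contacts missing only at T6, which were listed at T0 (1.105). A scaled share that was lower at T0 than at both later times was thus not particular to the newly listed contacts.

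The neighbours that shared a bin with a newly listed contact were listed more often than those that shared none. At T0 the most often listed neighbour was the pair with its first bin moved by 5 kb towards the second, at 42.5% of contacts, and the pairs shifted in both bins were listed for 20.6 to 30.6%. The layout was the same cross at T6 and T48. With distance, the share of the 8 neighbours listed at T0 fell from 35.7% at 20 to 50 kb to 30.2% at 500 kb to 1 Mb, and at T48 it went from 33.4% to 35.01%. In the longest class T0 lay below T48, and in the shortest class above it.

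**Figure D3:**
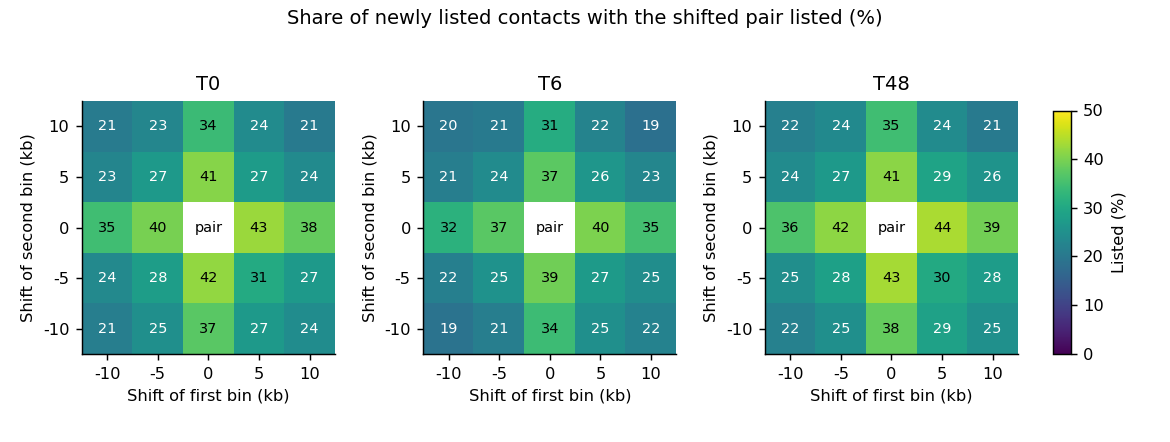
Share (%) of the 4619 newly listed contacts for which a shifted pair was listed, at T0, T6 and T48. The horizontal axis gives the shift of the first bin and the vertical axis that of the second (kb), colour and printed number both give the share, and the white centre is the contact itself. The T0 panel, where the centre is unlisted, shows the same cross of pairs sharing a bin as T6 and T48.

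Empty neighbourhoods were about as rare before treatment as after it. For 206 contacts (4.46%) none of the 24 pairs within 2 bins was listed at T0, for 217 (4.70%) none was at T6, for 163 (3.53%) none was at T48, and for 50 of all contacts none was listed at any of the 3 times. Of the 206, asking further for at least 2 of the 8 closest neighbours at both T6 and T48 left 15 contacts, a cut chosen after the values were seen. Of these 5 were on chromosome 1 and 4 on chromosome 6. Asking for at least 4 left 1 contact, between chr6:52055001-52060000 and chr6:52110001-52115000. Its counts were 21 and 12 at T6 and 18 and 13 at T48. None of its 24 surrounding pairs was listed at T0, 12 were at T6 and 11 at T48.

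That contact belongs to the largest group of newly listed contacts. Contacts were joined into a group when both bins lay within 2 bins of each other. This left 4026 contacts (87.2%) alone and put 593 into 272 groups of 2 or more, of which 37 held at least 3. The largest held 6 contacts between chr6:52050001-52060000 and chr6:52095001-52115000, 40 to 55 kb apart. Of the 8 bin pairs in that rectangle 0 were listed at T0, 6 after 6 h and 7 after 48 h. The 6 contacts had 150 and 80 reads in all at T6 and 131 and 85 at T48, with single counts of 20 to 34 in T6 replicate 1 and 12 to 16 in T6 replicate 2. These 6 contacts were chosen for that pattern, and the other 2 pairs of the rectangle were unlisted at T0 too, with 1 of them listed at T48.

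In the window of that patch's first side, the contacts that were listed throughout also had higher values after treatment, short of the test's threshold. Most of the second side, from chr6:52100001 on, lies in the next window, which is not given here. The 50 kb window chr6:52050001-52100000 held 8 ends of newly listed contacts, some of them on the same bin. Its contacts listed at all 3 times summed to 34.8 and 34.0 scaled counts (CPM, a count scaled to the library's sum over all windows) before ATRA, 48.8 and 42.7 after 6 h, and 40.4 and 39.0 after 48 h. All 4 treated libraries lay above both untreated ones. The log2 ratio was 0.41 at T6 (SE 0.076, edgeR adjusted p = 1.0) and 0.21 at T48 (SE 0.076, edgeR adjusted p = 0.559), so the window did not pass the test over all windows.

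The other 4 groups named here held 4 contacts each. One was on chromosome 1, between the single bin chr1:64220001-64225000 and chr1:64255001-64275000. All 4 pairs of that rectangle were newly listed, with 135 and 58 reads in all at T6 and 116 and 69 at T48. In the remaining 3 groups part of the rectangle was listed before treatment. On chromosome 2, between chr2:116715001-116735000 and chr2:117010001-117030000, 8 of 16 pairs were listed before ATRA, 13 at 6 h and 15 at 48 h. Between chr2:181125001-181140000 and chr2:181290001-181325000, 9 of 21 pairs were listed at T0, 14 after 6 h and 13 after 48 h. Between chr7:135585001-135620000 and chr7:135845001-135850000 it was 1 of 7 at T0 and 5 at each later time. The pairs listed at T0 in these 3 rectangles are pairs other than the newly listed contacts, which the rule sets at 0.

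The contacts rested on 8422 anchor bins. Of these bins 7740 (91.9%) belonged to 1 newly listed contact and 595 to 2, and 87 belonged to at least 3. Listed interactions of a bin were counted at all distances. Leaving out the newly listed contacts themselves, an anchor bin had a median of 17 listed interactions before ATRA, 14 at 6 h and 16 at 48 h. Over all 358176 autosomal bins with an interaction the medians were 9, 8 and 9. Scaled to the length of the lists, the median log2 ratio was 0.026 at T6 and -0.0026 at T48, against 0.0093 and -0.0098 over all bins. The anchor bins thus had more listed interactions than all bins at all 3 times, with no general rise in their other interactions. A bin with more listed interactions has more pairs that could meet the rule. Anchor bins were not compared with the bins of other strong contacts. The 87 bins with at least 3 newly listed contacts had medians of 25, 24 and 28 other interactions and median log2 ratios of 0.10 and 0.18. Other interactions were more numerous than at T0, after scaling, in 72.4% of these bins at T6 and 73.6% at T48, against 52.7% and 49.9% of all anchor bins. A bin with many newly listed contacts is one whose list grew, so this is a description with no test. Of the 87 bins 29 (33.3%) were on chromosome 1, which held 8.27% of the newly listed contacts. Chromosome 1 was also rich in strong contacts in general. It held 7225 of the 48812 pairs strong at T6 and T48, and 5718 of the 35059 strong at all 3 times.

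The 5 bins with the most newly listed contacts were of different kinds, and in 4 of them the list grew beyond the newly listed contacts themselves. The bin chr1:64220001-64225000 anchored 11 newly listed contacts, 20 to 280 kb away, 8 of them to its right. It had 18 listed interactions at T0, 62 at T6 (51 without the newly listed ones) and 89 at T48 (78 without them). Its newly listed contacts had counts of 11 to 59 in T6 replicate 1, 6 to 24 in T6 replicate 2, 12 to 65 in T48 replicate 1 and 8 to 32 in T48 replicate 2.

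The bin chr6:101105001-101110000 anchored 8 newly listed contacts, 4 on each side and up to 195 kb away. Its interactions numbered 13 before ATRA, 59 at 6 h and 79 at 48 h. Without the newly listed contacts it had 51 and 71 at the later times. The bin chr1:152865001-152870000 anchored 7, up to 440 kb away, and had 35 interactions at T0, with 99 and 107 others than the newly listed ones later. The bin chr1:158770001-158775000 anchored 9, all within 105 kb, and had 23 interactions at T0, with 37 and 40 others later. In these 4 bins most of the increase in other interactions was already on the T6 list. Their T0 numbers, 13 to 35, lay on both sides of the anchor bins' median of 17.

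The remaining bin was of another kind. The bin chr1:26740001-26745000 had 311 interactions at T0, 289 after 6 h and 350 after 48 h, and its 8 newly listed contacts lay 285 to 775 kb away. Its list was long before treatment and stayed so.

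**Figure D4:**
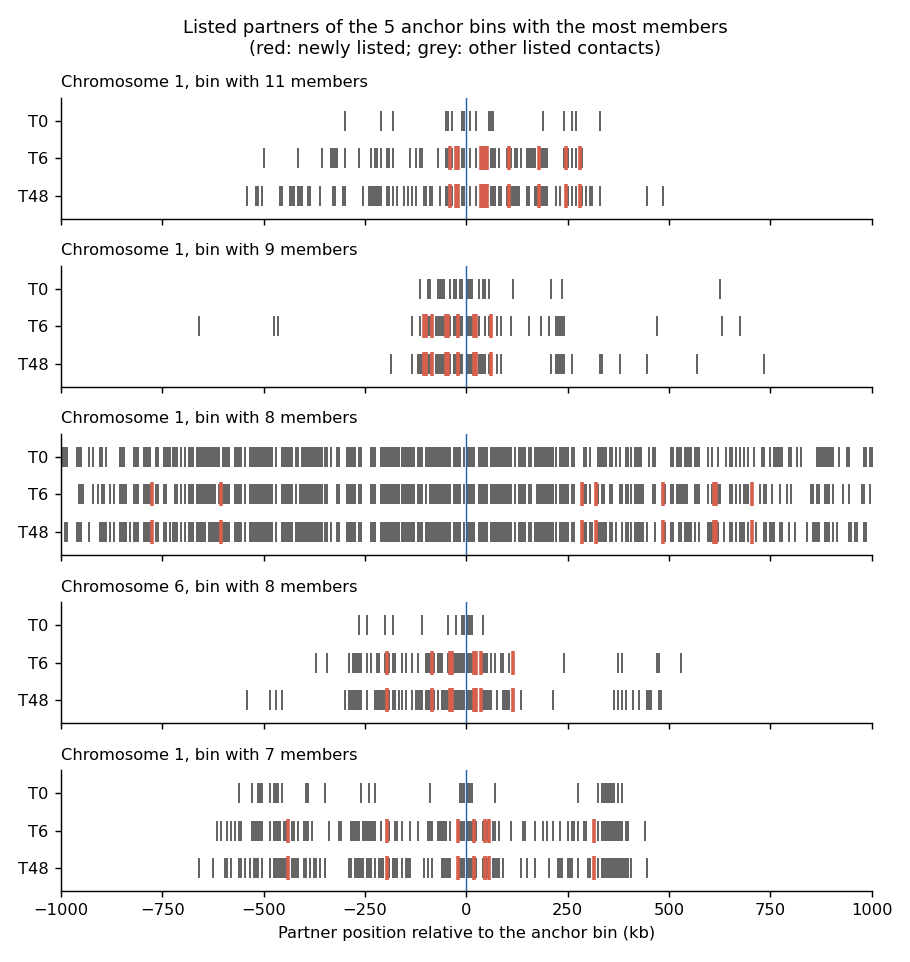
Positions of listed partners (kb from the anchor bin, horizontal axis) at T0, T6 and T48 for the 5 bins with the most newly listed contacts, shown as red ticks, with all other listed contacts as grey ticks. In 4 of the 5 panels the T0 row holds 13 to 35 ticks and the later rows 46 to 114, the red ones included. The third panel holds 289 to 350 in each row.

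The windows of these bins can be read per library, using only contacts listed at all 3 times. The window chr6:101100001-101150000 had 42.3 and 32.7 CPM before ATRA, 54.5 and 48.2 after 6 h, and 51.0 and 65.9 after 48 h. Its treated libraries all lay above the untreated ones (log2 0.45 at T6, SE 0.16, edgeR adjusted p = 1.0; log2 0.63 at T48, SE 0.16, edgeR adjusted p = 0.474). The window chr1:64200001-64250000 had 23.2 and 36.5 CPM before ATRA, 37.4 and 35.4 after 6 h, and 41.8 and 40.9 after 48 h. There the T0 libraries differed more from each other than the T6 libraries did from the T48 libraries, and T0 overlapped T6. The log2 ratio was 0.30 at T6 (SE 0.19, edgeR adjusted p = 1.0) and 0.48 at T48 (SE 0.19, edgeR adjusted p = 0.566).

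The window chr1:152850001-152900000 had 91.1 and 112.6 CPM at T0 and 126.3 and 138.9 at T48 (log2 0.38, SE 0.12, edgeR adjusted p = 0.528). Its T6 libraries, with 111.7 and 123.9 CPM, overlapped T0 (log2 0.21, SE 0.12). The window chr1:158750001-158800000 had 62.4 and 46.7 CPM at T0 and 68.2 and 66.5 at T48 (log2 0.30, SE 0.13, edgeR adjusted p = 0.592). There too T6 overlapped T0, with 62.33 and 64.65 CPM after 6 h against 62.36 and 46.74 before ATRA (log2 0.21, SE 0.13). The window of the densely connected bin, chr1:26700001-26750000, had 186.6 and 177.6 CPM at T0 and 200.3 and 186.6 at T48 (log2 0.087, SE 0.10, edgeR adjusted p = 0.865). After 6 h that window stood at 188.9 and 177.2 CPM, again overlapping T0 (log2 0.0078, SE 0.10). No window of the 5 bins passed the test.

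The contacts furthest above the threshold were of several kinds. A contact of 885 kb joined chr14:110270001-110275000 and chr14:111155001-111160000 with counts of 36 and 26 at T6 and 17 and 18 at T48, where the lowest listed count at that distance was 3. Its lowest multiple was 5.67. Of its 8 neighbours 1 was listed before ATRA, 0 at 6 h and 1 at 48 h, so it stood almost alone.

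A contact of 205 kb joined chr5:147510001-147515000 and chr5:147715001-147720000 with 40 and 20 reads at T6 and 30 and 33 at T48, and 1 of its 8 neighbours was listed at each time. A contact of 160 kb joined chr2:168290001-168295000 and chr2:168450001-168455000 with 36 and 21 reads at T6 and 37 and 21 at T48, and 2 of its 8 neighbours were listed at each time. The treated counts of both were at least 4.2 times the floor, and the number of listed neighbours among the closest 8 was equal at the 3 times.

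By contrast, a contact of 400 kb between chr11:44420001-44425000 and chr11:44820001-44825000 lay in a dense patch. Its counts were 19 and 16 at T6 and 30 and 12 at T48. Of its 8 neighbours 8 were listed at T0, 7 after 6 h and 8 after 48 h, so at T0 it was an unlisted bin pair inside a listed patch.

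Some of the highest multiples came from regions where the replicates disagreed at every time point. The contact with the highest lowest multiple, 6.0, joined chr5:14970001-14975000 and chr5:15210001-15215000. It had 30 and 323 reads at T6 and 83 and 335 at T48. The window of its first bin, chr5:14950001-15000000, had 115.0 and 1816 CPM before ATRA, 142.7 and 1962 after 6 h, and 154.8 and 1952 after 48 h, so replicate 2 was far above replicate 1 before treatment too.

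A contact between chr1:87395001-87400000 and chr1:87525001-87530000 had 27 and 107 reads at T6 and 39 and 93 at T48. The window of its first bin had 36.2 and 368.8 CPM at T0. In all, 31 newly listed contacts (0.671%) had over 4 times more reads in replicate 2 than in replicate 1 at both T6 and T48, after scaling to the median ratio, and 0 had the opposite. Among 197838 pairs of the same distances listed at all 3 times, 908 (0.459%) had the first pattern and 6 the second. In both examples the imbalance was present at T0 as well, and its part in the listing was not tested.

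Several of the longest contacts had counts near the floor of 3. The longest, of 990 kb, joined chr1:68200001-68205000 and chr1:69190001-69195000 with 5 reads in each of the 4 treated libraries. Another, of 985 kb between chr10:52275001-52280000 and chr10:53260001-53265000, had 5 and 7 reads at T6 and 10 and 5 at T48, and none of its 24 surrounding pairs was listed at any time. A contact of 985 kb between chr17:7150001-7155000 and chr17:8135001-8140000 had 10 and 55 reads at T6 and 8 and 51 at T48, an imbalance of the replicates that is the same at both times.

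The rule set a minimum count at both treated times and did not use the difference between them, so T48 was tested against T6. The minimum narrows the ratios that the contacts can take, so their distribution beside that of all pairs is a description. The edgeR quasi-likelihood test was run on all nuclear pairs listed at both times, and 3064 of the 4619 newly listed contacts passed its filter on low counts. It called 0 newly listed contacts at an adjusted p under 0.05, and 0 of the 571003 pairs tested (0.0%). At an unadjusted p under 0.05, 97 newly listed contacts were higher at T48 and 50 lower, and these counts turned with single libraries, to 14 and 116 without T6 replicate 1 and 140 and 17 without T48 replicate 1. With all libraries they are 3.17% and 1.63% of the contacts tested, against 2.23% higher and 3.29% lower among all 191805 autosomal pairs of the distance range. Their median log2 ratio was 0.032, against -0.016 over those pairs. Within replicate 1 the median was 0.039 and within replicate 2 it was -0.049, where all pairs of the range had -0.016 and -0.049. The sign of the median thus depended on the replicate, and within replicate 2 the median equalled that of all pairs. It was -0.074 without T6 replicate 1, -0.074 without T48 replicate 2 and 0.18 without T6 replicate 2. All pairs of the range then had -0.039, -0.065 and 0.055. DESeq2 called 0 newly listed contacts. In simulated counts the test recovered 11% of 2-fold and 73% of 4-fold changes over all 571003 pairs, so most 2-fold changes of single pairs would not have been called.

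**Figure D5:**
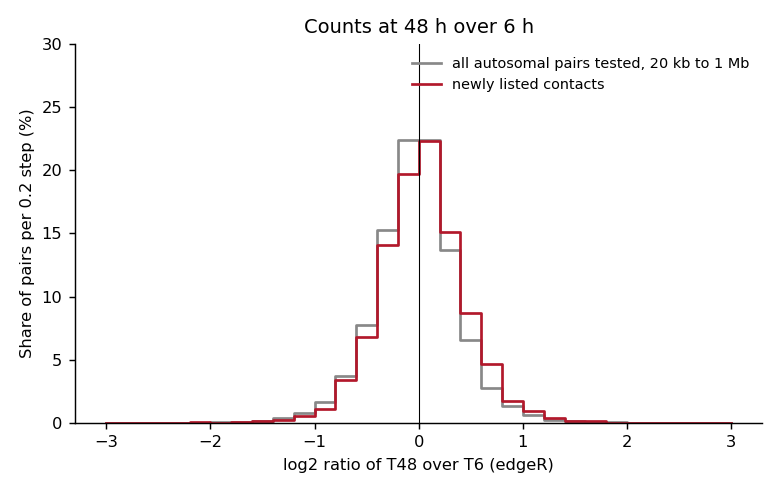
Distribution of log2 ratios of T48 over T6 (edgeR, horizontal axis, steps of 0.2) as the share of pairs in each step (%, vertical axis), for 3064 newly listed contacts in red and 191805 autosomal pairs of 20 kb to 1 Mb in grey. Both are centred close to 0, with medians of 0.032 and -0.016.

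The contacts with the largest ratios between T48 and T6 did not pass the test either. The highest ratio, of a 235 kb contact between chr17:40050001-40055000 and chr17:40285001-40290000, came with 8 and 7 reads at T6 and 42 and 10 at T48 (log2 1.70, SE 0.55, edgeR adjusted p = 0.969). A 535 kb contact between chr4:145485001-145490000 and chr4:146020001-146025000 had 5 and 6 reads at T6 and 25 and 9 at T48 (log2 1.54, SE 0.47, edgeR adjusted p = 0.961). In both, T48 replicate 1 stood far above T48 replicate 2. The next were more even. A contact of 210 kb between chr5:105145001-105150000 and chr5:105355001-105360000 had 8 and 6 reads at T6 and 23 and 24 at T48. Both T48 libraries were above both T6 libraries (log2 1.66, SE 0.36, edgeR adjusted p = 0.839). A contact of 150 kb between chr4:98405001-98410000 and chr4:98555001-98560000 had 12 and 6 reads at T6 and 30 and 29 at T48 (log2 1.64, SE 0.30, edgeR adjusted p = 0.786).

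A contact of 275 kb between chr10:59875001-59880000 and chr10:60150001-60155000 had 10 and 9 reads at T6 and 40 and 23 at T48 (log2 1.64, SE 0.28, edgeR adjusted p = 0.723). None of its 8 neighbours was listed at any time. In the other direction, a contact of 150 kb between chr14:121675001-121680000 and chr14:121825001-121830000 had 31 and 38 reads at T6 and 9 and 9 at T48 (log2 -2.01, SE 0.50, edgeR adjusted p = 0.891). The other 4 contacts with the lowest ratios had 50 to 61 reads in 1 T6 library and 9 to 14 in the other. Between chr13:66370001-66375000 and chr13:66875001-66880000, for example, the counts were 61 and 9 at T6 and 10 and 16 at T48.

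The contacts next to the newly listed ones that were listed at all 3 times allow a test against T0 that the rule did not use. Within 2 bins of a newly listed contact there were 15079 such pairs, of which 10897 passed the filter. edgeR called 0 of them at T6 and 0 at T48, as it called 0 of all 496203 pairs tested in either comparison (0.0%). At T6 their median log2 ratio was 0.021, against -0.00014 over all 153761 pairs of the distance range, and 270 were higher and 208 lower at an unadjusted p under 0.05 (2.48% and 1.91%, against 1.72% and 1.6%). With offsets per distance class the T6 median was -0.00064, against -0.0025 over all pairs of the range. In simulated counts of the T48 over T0 comparison this test recovered 5% of 2-fold and 77% of 4-fold changes over all 496203 pairs. Most 2-fold changes of single neighbour pairs would therefore not have been called, and the 0 calls do not show that the neighbours were unchanged.

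At T48 the neighbours' median log2 ratio was 0.063, against -0.031 over all pairs of the distance range. Of the neighbours 576 were higher and 287 lower at an unadjusted p under 0.05, but 303 and 325 without T0 replicate 1. With all libraries those are 5.29% and 2.63%, against 2.39% and 3.56% of all pairs of that range. The median was 0.072 within replicate 1 and -0.019 within replicate 2, where all pairs had -0.032 and -0.020. The shift relative to all pairs was thus present within replicate 1 and nearly absent within replicate 2. These T48 values were fitted without distance offsets. With offsets per distance class the T48 median was 0.079 for neighbours and 0.025 for all pairs of the range, so the gap was smaller. At an unadjusted p under 0.05 (edgeR), 4.37% of neighbours were then higher and 2.19% lower, against 2.58% and 2.65%. Neighbours of 1 contact share bins and reads with each other and are not independent.

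In wider windows the contacts around the anchors differed little in the median between T0 and the later times. Counts of pairs listed at all 3 times were summed per 50 kb window, and 6379 windows with an anchor bin were tested among 49387. At T6 edgeR called 0 of them, and 0 windows in all (0.0%). Of the anchor windows 51 were higher and 60 lower at an unadjusted p under 0.05 (0.800% and 0.941%, against 0.931% and 0.802% of all windows). Their median log2 ratio was -0.0010.

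At T48 edgeR called 2 anchor windows of the 13 windows called in all (0.0263%), both lower, where 11 of all windows were called lower (0.0223%). At an unadjusted p under 0.05, 321 anchor windows were higher (5.03%) and 416 lower (6.52%), against 3.48% and 5.12% of all windows. The median log2 ratio of the anchor windows was -0.0017, and its sign depended on single libraries. It was 0.013 without T48 replicate 1 and 0.017 without T0 replicate 2. It was -0.020 without T48 replicate 2 and -0.016 without T0 replicate 1. In simulated counts of the T48 over T0 comparison the test recovered 87% of 2-fold and 96% of 4-fold changes among 49387 windows. The window chr2:92250001-92300000 had 60.6 and 62.3 CPM before ATRA, 42.3 and 42.9 after 6 h, and 36.9 and 39.1 after 48 h. It fell by 0.69 on the log2 scale at T48 (SE 0.056, edgeR adjusted p = 0.0438), from 61.5 ± 1.19 to 38.0 ± 1.51 CPM (SD, n = 2), and stood at 42.6 ± 0.401 at T6. Its newly listed contact, of 45 kb between chr2:92230001-92235000 and chr2:92275001-92280000, had 21 and 12 reads at T6 and 18 and 15 at T48.

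The window chr3:84100001-84150000 had 51.6 and 54.5 CPM before ATRA, 29.7 and 29.8 after 6 h, and 30.1 and 30.9 after 48 h. It fell by 0.80 at T48 (SE 0.056, edgeR adjusted p = 0.0342), from 53.0 ± 2.05 to 30.5 ± 0.559 CPM (SD, n = 2). Its newly listed contact, of 215 kb between chr3:84115001-84120000 and chr3:84330001-84335000, had 11 and 7 reads at T6 and 16 and 7 at T48. In both windows a contact entered the list while the contacts that were listed throughout fell. Leaving out any 1 of the 6 libraries ended both calls, which left 0 anchor windows called, and so did counting only pairs of at least 15 kb.

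With only pairs of at least 15 kb in the windows, more anchor windows were higher at T48 than lower. At an unadjusted p under 0.05, 605 of 6254 anchor windows were higher (9.67%) and 338 lower (5.41%), against 3.64% and 5.2% of all 40530 windows. Their median log2 ratio was 0.024, and it was 0.031 within replicate 1 and 0.022 within replicate 2. The windows without an anchor had a median of -0.0033. edgeR called 0 anchor windows in that setting, with a lowest adjusted p of 0.0593. Anchor windows were not matched to the other windows for number of listed interactions or for distance between bins. The part of these differences was not tested. Neither distance offsets nor fits with a library left out were run in that setting.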

How the data were processed

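The submitters' processing notes name the mm9 build, Bowtie2 and CASAVA 1.8.2. The interaction caller and its threshold are not given in the sources used here. Per the file headers, the authors deposited 1 table of raw read-pair counts per library for pairs of 5 kb bins. The submitters call its content interactions found significant in both replicates. Its 4 mitochondrial pairs were left out. Floors are the lowest count above 0 per library and distance over autosomes. The newly listed contacts, the comparisons and the rule for named regions were chosen with earlier results of these data known. Named were, 1 per 500 kb, contacts with the highest lowest multiple, the extreme T48 over T6 ratios, the largest distance and values at the threshold, and the bins and groups with the most contacts. Further examples were chosen after their values were seen.

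Tests used edgeR 4.0.16 (R 4.3.3) with TMM factors, filterByExpr, the quasi-likelihood F test and two-sided Benjamini-Hochberg adjusted p-values at 0.05 over all features. T48 over T6 used the 4 treated libraries, and comparisons with T0 all 6, on pairs listed at all 3 times. A pair counted once per 50 kb window. The fits were tested on simulated data. Gene names and sequences are not reported here, because no mm9 annotation or genome was used.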

Additional observations from a re-analysis of the deposited data

How the results depend on the processing

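The number of newly listed contacts followed the rule: 16441 at the lower threshold tried, 714 at 2, and 7332 to 9554 when 1 treated library was left out, all of which contain the 4619 except the set at 2. Floors over neighbouring distances gave 6178, 1st-percentile floors 4619 and a minimum of 50 kb 4136. In stricter lists, with counts of at least 1.5 times the floor in both replicates, 16.99% of the 8 neighbours were listed before ATRA, 14.5% after 6 h and 18.1% after 48 h. The 0 calls among newly listed contacts and among neighbour pairs were the same under every alternative run, including DESeq2, no filter, offsets per distance class and each library left out.

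Anchor windows called at T6 (0) became 5 with DESeq2 (0.078%), against 14 of all windows (0.028%). Those called at T48 (2) became 16 with DESeq2 (0.251%), against 108 of all windows (0.219%). They were 1 with DESeq2 size factors (0.0157%, against 0.0182% of all windows) and 1 in windows of 25 kb (0.0139%, against 0.01915%). From pairs of at least 15 kb they were 0. The cause was not tested.

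Replicate numbers are shared by the groups, and the labels give no common origin for them. Deviations of same-numbered libraries correlated at 0.748, 0.659 and 0.657 over windows, with only 2 numbers. With a replicate block, 4 anchor windows were called at T6 (0.063%), against 12 of all windows (0.024%). At T48 the block gave 62 anchor windows (0.972%), 12 higher and 50 lower, against 310 of all windows (0.628%). It gave 0 calls among newly listed contacts and 0 among neighbour pairs.

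Single contacts had a median of 8 to 12 reads, which limits what a test of 1 contact can show.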

Other observations

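Chromosome X, which the rule leaves out, held 446 pairs that met it with the autosomal floors. They were 15.8% (95% Wilson interval 14.5 to 17.2%) of the 2818 pairs of chromosome X that were strong at T6 and T48. The pairs missing only at T6 were 20.1% of 3225, and those missing only at T48 were 30.6% of 4942 (interval 29.3 to 31.9%). The order of the 3 shares was the same as on the autosomes. Each was above its autosomal value, which was 9.46% at T0, 13.8% at T6 and 18.4% at T48.

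Several of the 15 contacts that came from an empty T0 neighbourhood shared bins with the largest anchors. The bin chr1:64220001-64225000 met chr1:64325001-64330000 with 13 and 9 reads at T6 and 19 and 13 at T48. The bin chr6:101105001-101110000 met chr6:101020001-101025000 with 20 and 11 reads at T6 and 17 and 16 at T48. It also met chr6:101220001-101225000 with 21 and 8 reads at T6 and 24 and 17 at T48. The bin chr1:152865001-152870000 met chr1:152910001-152915000 with 21 and 14 reads at T6 and 22 and 15 at T48. Others lay outside those bins. On chromosome 14, chr14:108180001-108185000 met chr14:108200001-108205000 with 48 and 23 reads at T6 and 34 and 21 at T48. On chromosome 2, chr2:123335001-123340000 met chr2:123355001-123360000 with 49 and 23 reads at T6 and 46 and 34 at T48. Each of these contacts was unlisted at T0 together with all 24 surrounding pairs, and each was above its floor in all 4 treated libraries.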
